A study of Mus musculus with 2 samples.

Results

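Immediate early genes and heat shock genes were followed through the hepatocyte and non-hepatocyte clusters of mouse liver. The set held 8 members, Dusp1, Egr1, Hspa1b, Jun, Zfp36, Fos, Junb and Hspa1a. The members were chosen by their listing in the study's marker tables, so what the listing itself says of them is a description and was not tested. The study has 2 tables of cluster markers, and of the 2783 genes listed in either, 7 were members. Of these, 4 (Dusp1, Egr1, Hspa1b and Jun) were listed in both. Hspa1a was listed in neither. Primary hepatocytes came from wild type male BALB/c mice of 8 to 10 weeks that had been fasted and had received intraperitoneal PBS or rIL-33 (0.5 µg) daily for 5 days, and were freed by 2-step perfusion with Liberase. PBS gave 1 droplet-based 10× Genomics 3ʹ library and rIL-33 also 1, without sorting. Both libraries were pooled in the tables, so no value for PBS or rIL-33 apart, no replicate error and no test could be given, and the depth per cell and per library is unknown.

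Immediate early genes are switched on within minutes by growth factors, cytokines or stress, without new protein synthesis, through kinases such as the MAP kinases and factors already present in the cell. Their products are transcription factors (Fos, Jun, Junb, Egr1) and feedback inhibitors (Dusp1, Zfp36), and their transcripts are short-lived. Heat shock genes are driven by HSF1 when proteins misfold. Their products are chaperones, of which Hspa1a and Hspa1b are the inducible HSP70 pair, whereas Hspa8 is the constitutive HSP70. In liver, both groups are known for their rise after partial hepatectomy, in the acute phase response and during the handling and enzymatic digestion of the tissue.

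The 150 bases before the start site of transcription are shown for the 4 members that were listed for a hepatocyte cluster and have an entry in the RefSeq promoter table (GRCm38.p6), and for Hspa1a, the near copy of Hspa1b. Egr1, also listed for hepatocyte clusters, was not in that table. Capitals mark matches on either strand to the heat shock element pair GAANNTTC, the CArG box bound by serum response factor, the cAMP response element TGACGTCA or the motif CCAAT.
Hspa1b (chr17:34959239-34959388, minus strand): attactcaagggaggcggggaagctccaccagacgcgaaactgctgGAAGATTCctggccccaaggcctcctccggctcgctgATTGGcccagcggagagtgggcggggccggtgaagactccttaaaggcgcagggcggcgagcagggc
Hspa1a (chr17:34972157-34972306, minus strand): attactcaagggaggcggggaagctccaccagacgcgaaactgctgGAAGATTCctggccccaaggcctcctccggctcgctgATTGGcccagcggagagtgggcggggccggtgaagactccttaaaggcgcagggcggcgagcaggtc
Jun (chr4:95052223-95052372, minus strand): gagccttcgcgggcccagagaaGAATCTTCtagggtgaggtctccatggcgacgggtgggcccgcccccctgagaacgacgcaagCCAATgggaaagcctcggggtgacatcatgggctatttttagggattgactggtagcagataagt
Zfp36 (chr7:28379229-28379378, minus strand): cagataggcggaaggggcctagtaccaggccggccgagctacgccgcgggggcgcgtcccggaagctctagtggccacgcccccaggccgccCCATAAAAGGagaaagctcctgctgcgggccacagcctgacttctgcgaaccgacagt
Dusp1 (chr17:26508473-26508622, minus strand): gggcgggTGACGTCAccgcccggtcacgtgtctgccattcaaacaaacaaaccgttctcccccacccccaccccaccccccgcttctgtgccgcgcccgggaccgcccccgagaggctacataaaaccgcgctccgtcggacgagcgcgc

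The promoters of Hspa1a and Hspa1b were identical at 296 of 300 positions, from 250 bases before to 50 after the start, and both held GAAGATTC, a match to GAANNTTC, at bases -104 to -97 relative to the start. Jun held a match to the same motif at bases -128 to -121. Zfp36 held a CArG box at bases -58 to -49, and Dusp1 held TGACGTCA at bases -143 to -136. In the 7 member promoters with an entry, GAANNTTC was found in 3, against 7.86% of all 32851 mouse promoters of the same length. The CArG box was found in 1 (1.63% of all promoters) and TGACGTCA in 1 (1.79%). Its shorter form TGACG was in 3 (20.8%), the TATA motif TATAAA in 2 (13.6%), the motif CCAAT in 4 (37.4%) and the GC box GGGCGG in 6 (35.7%). The pair TTCNNGAA (8.52% of all promoters) and the AP-1 site TGANTCA (7.81%) were found in 0 of the 7. Only these exact patterns were counted, so variants such as tgacatca in the Jun promoter above were not. Matches of TGACG include the one within TGACGTCA. A match describes the letters of the reference and is not evidence of binding.

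On GRCm38, the assembly the authors call mm10, Zfp36 lies on chromosome 7 from 28376784 to 28380253, Egr1 on chromosome 18 from 34859823 to 34864984, and Jun, with 1 exon, on chromosome 4 from 95049034 to 95052222 (GENCODE M21). Dusp1 lies on chromosome 17 from 26505590 to 26562128, and its longest transcript in the basic annotation has 4 exons. These GENCODE spans of Dusp1 and Zfp36 reach past the RefSeq start sites used above, so the promoters shown for both genes lie inside the spans. Hspa1b (chromosome 17, 34956436 to 34959238) and Hspa1a (34969190 to 34972156) are genes of 1 exon each. Their coding sequences, compared base by base from the start codon, were identical at 1889 positions, 98.1% of the longer one. Of all stretches of 89 bases, the length of the sequenced transcript read, 52.5% of those in the Hspa1b transcript also occurred in Hspa1a. In the last 500 bases of the transcript, where reads of a 3ʹ library are expected to lie, 0 of 412 did. Reads from the 3ʹ end could therefore be assigned to Hspa1b, and reads from further inside could not always be.

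In the comparison between hepatocytes, the members were found in 2 of the 5 clusters. A row holds 2 shares of positive cells, meaning cells whose value exceeded 0, for the cluster and for the remaining hepatocytes. The lists are the authors' cluster markers, whose fold changes were not used. In each row of either table, the larger of both shares was at least 25%. The table lists 1604 genes by name, and 5 of them were members. All 5 (Dusp1, Egr1, Hspa1b, Jun and Zfp36) were listed for Hepatocyte4, as were 54.7% of all genes in the table. Egr1 and Jun were listed for Hepatocyte5 as well, as were 54.3% of all genes. No member was listed for Hepatocyte1, Hepatocyte2 or Hepatocyte3, for which 10.5%, 3.49% and 7.67% of all genes were listed. Fos, Junb and Hspa1a were listed for no hepatocyte cluster. Absence from a list does not mean absence of expression, since a gene positive in less than 25% of the cells on both sides would not appear. Nor does it mean a low share. Hspa8 was found in 62.4% of the hepatocytes outside Hepatocyte2 and was listed for Hepatocyte2 alone.

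**Figure D1:**
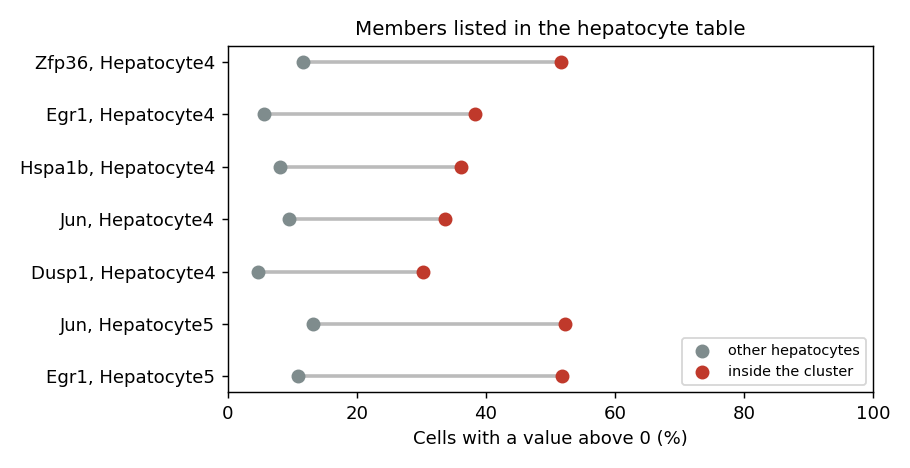
Each line is 1 member in 1 hepatocyte cluster, and the horizontal axis gives the percentage of positive cells, in the cluster (red) and in the other hepatocytes (grey), with both libraries pooled and no replicates. Inside Hepatocyte4 the members lie between 30.3% and 51.6%, and outside it between 4.7% and 11.7%.

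Among the transcription factors, Egr1, a zinc finger protein, was detected in 38.3% of Hepatocyte4 and in 5.6% of the remaining hepatocytes, which is 32.7 percentage points apart. In Hepatocyte5 the share was 51.7%, against 10.9% of the cells outside. Egr1 thus had the lower share outside both clusters of the 2 factors listed. Jun, the DNA-binding partner of Fos in AP-1, was detected in 33.6% of Hepatocyte4 and 9.4% outside, and in 52.3% of Hepatocyte5 and 13.2% outside. The difference of Jun in Hepatocyte4, 24.2 percentage points, was the smallest of the 5 members. Solving the balance of shares left Egr1 in 4.75% and Jun in 8.61% of the Hepatocyte1, Hepatocyte2 and Hepatocyte3 cells as 1 pool.

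Both feedback inhibitors were listed for Hepatocyte4 and not for Hepatocyte5. Zfp36, tristetraprolin, binds AU-rich elements and hastens the decay of cytokine and immediate early transcripts. It was found in 51.6% of Hepatocyte4 and 11.7% of the remaining hepatocytes, the highest share and the largest difference (39.9 percentage points) of the members in this cluster. Dusp1, a phosphatase that inactivates MAP kinases such as p38 and JNK, was found in 30.3% of Hepatocyte4 cells and 4.7% of the others, the lowest share both inside and outside. The ratio of both shares was 6.45 for Dusp1 and 4.41 for Zfp36, so the order of these genes by ratio was the opposite of that by difference.

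Of the heat shock members, Hspa1b was found in 36.1% of Hepatocyte4 and 8.1% of the remaining hepatocytes. The difference, 28 percentage points, was the median of the 5 members. Its ratio of shares was 4.46, between those of Zfp36 and Dusp1.

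Over all hepatocytes, the computed share with a value above 0 was 18.9% for Zfp36, 13.8% for Jun, 13.2% for Hspa1b, 11.5% for Egr1 and 9.33% for Dusp1. For Egr1 and Jun it could be computed from the row of either cluster, and the results differed by 0.0212 and 0.00725 percentage points. The cluster sizes behind these values were also computed from the shares, with 18.1% of the hepatocytes in Hepatocyte4 and 1.47% in Hepatocyte5. Hepatocyte4 held 60.2% of the Egr1-positive and 58.8% of the Dusp1-positive hepatocytes. It held 49.6% of those positive for Hspa1b, 49.4% for Zfp36 and 44.1% for Jun. The median over all 877 genes listed for Hepatocyte4 was 51.1%, so Egr1 and Dusp1 lay above it and the other 3 members below it. Hepatocyte5 held 6.60% of the Egr1-positive and 5.58% of the Jun-positive hepatocytes, against a median of 7.80% over its 871 genes.

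Most genes listed for these clusters were detected in more of their cells. In Hepatocyte4, 875 of the 877 genes had a higher share inside the cluster than outside, with a median difference of 33.1 percentage points and a median ratio of 4.73. The median difference of the members was 28 percentage points and their median ratio 4.46. By difference, Zfp36 ranked 279, Egr1 447, Hspa1b 569, Dusp1 650 and Jun 702 of 877, and Hspa5, the ER chaperone BiP, ranked first with 88.0% against 22.6%. By ratio, Egr1 ranked 68 and Dusp1 104. In Hepatocyte5, 870 of 871 genes had a higher share inside, with a median difference of 42.9 percentage points. Egr1 ranked 475 and Jun 508 there, and Neat1, a nuclear long non-coding RNA, ranked first with 94.7% against 12.9%. Hepatocyte1 was the opposite, with a lower share inside the cluster for 159 of its 169 genes. The number of transcripts counted per cell is unknown, and its part in the members' shares was not tested. Of 27 markers of 7 other cell types, 0 were listed for any hepatocyte cluster in either table. Iglc3, an immunoglobulin light chain gene outside these markers, had the largest difference for Hepatocyte1 in the table of all cells, with 60.3% against 48.4%. As described below, shares in that table are not on the scale of those in the hepatocyte table. The part of Iglc3 in the members' shares was not tested.

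**Figure D2:**
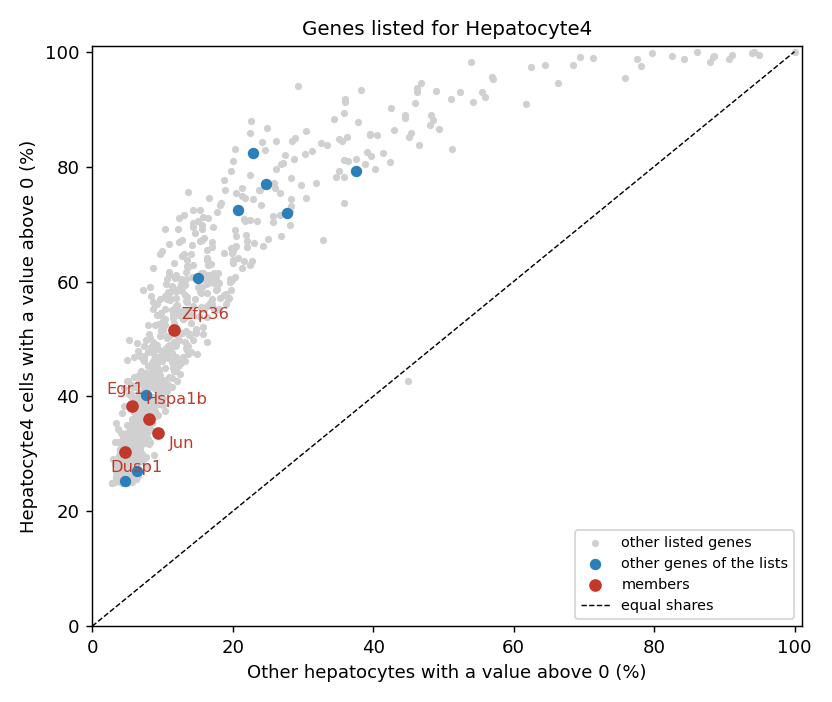
Each point is a gene listed for Hepatocyte4 (a few are not shown), by the percentage of the other hepatocytes (horizontal) and of Hepatocyte4 cells (vertical) with a value above 0; members are red, other genes of the immediate early, heat shock and upstream lists blue, and the dashed line marks equal shares. The 5 members lie within the cloud of listed genes, Egr1 and Dusp1 towards its left edge and Jun further to the right.

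For the genes listed for both Hepatocyte4 and Hepatocyte5, the share was usually higher in Hepatocyte5. This held for 425 of 430 genes, with a median difference of 21.9 percentage points. Egr1 was 13.4 and Jun 18.7 percentage points higher in Hepatocyte5 than in Hepatocyte4, both less than the median. They ranked 349 and 273 of the 430 genes.

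Genes with the nearest shares were sought among those listed for exactly the same hepatocyte clusters. For Egr1, over 4 shares and 429 genes, these were Tex2, Acsf2 and Retreg2, with mean absolute differences of 1.18, 1.20 and 1.25 percentage points. For Jun they were Ppara, the nuclear receptor of fatty acid catabolism (1.20), Itch (1.58) and Rtn3 (1.85). For the members listed for Hepatocyte4 alone, 2 shares could be compared over 440 genes. Zfp36 was nearest to Klf15, a transcription factor (0.15), Rad23b (0.65) and Hykk (0.85). Dusp1 was nearest to Clic4 (0.15), Fam126b (0.25) and Ssbp3 (0.45), and Hspa1b to Sec31a (0.05), Cd59a (0.40) and Dhrs3 (0.40). No other member was among these genes.

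The other genes of both groups were taken from lists of 50 immediate early genes, 27 heat shock genes and 15 upstream kinases and factors, members included. Of the 84 genes that were no members, 16 were listed for a hepatocyte cluster. These held 6 immediate early genes, 5 of them listed for Hepatocyte4 (54.7% of all genes) and 2 for Hepatocyte5 (54.3%). No such gene was listed for Hepatocyte1 (10.5%), Hepatocyte2 (3.49%) or Hepatocyte3 (7.67%). Zfp36l1 and Zfp36l2, relatives of Zfp36 that also bind AU-rich elements, were found in 82.3% and 40.3% of Hepatocyte4 cells, against 22.9% and 7.6% of the others. Klf9, a target of glucocorticoid and thyroid hormone receptors, was found in 72.4% against 20.8%. Btg1, an antiproliferative gene, was found in 60.6% of Hepatocyte4 cells against 15.1%, and Mcl1, an anti-apoptotic gene, in 27.0% against 6.4%. In Hepatocyte5, Zfp36l1 was found in 84.1% of the cells against 33%, and Trib1, a pseudokinase, in 34.4% against 7.5%. The median difference of the 9 immediate early genes listed for Hepatocyte4, members included, was 32.7 percentage points, close to that of all 877 genes. Of the 15 upstream genes, 2 kinases were listed, both for Hepatocyte4. Mapk14, which encodes p38α, was found in 25.3% of Hepatocyte4 cells against 4.7%.

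The heat shock genes were listed for more clusters, though most of those in Hepatocyte3 had nearly level shares. Hepatocyte4 listed 4 beside Hspa1b (54.7% of all genes). Among these were Hspa9 (77.0% against 24.8%) and Hspd1 (79.3% against 37.5%), both mitochondrial chaperones, and the HSP70 cofactor St13 (72.0% against 27.7%). Hepatocyte2 listed 3 others (3.49%). Hspa8 was found in 94.3% of Hepatocyte2 cells against 62.4% of the other hepatocytes, Hsp90ab1, the constitutive cytosolic HSP90, in 93.7% against 61.2%, and Ubb, which encodes ubiquitin, in 93.0% against 59.6%. Hepatocyte3 listed 4 (7.67%), of which Ubb was found in 73.3% against 63.6%. The shares of Hsp90ab1 (66.0% against 66.1%), Dnaja1 (46.0% against 45.3%) and St13 (36.5% against 35.6%) were nearly level inside and outside Hepatocyte3. Hspa8 and Hsp90ab1 were thus not listed for the cluster that listed Hspa1b, and Ubb was listed for Hepatocyte2 and Hepatocyte3. Whether these genes differ between the clusters was not tested.

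**Figure D3:**
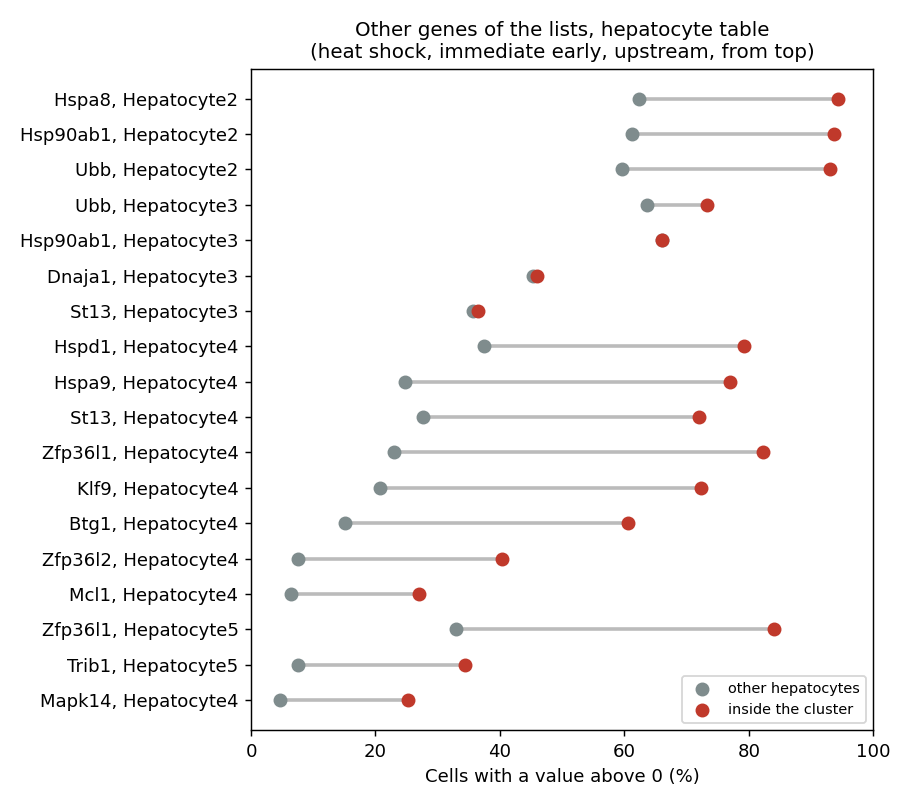
Each line is 1 of the reported genes that are no members in 1 hepatocyte cluster, with heat shock genes at the top, then immediate early and upstream genes; the horizontal axis gives the percentage of positive cells in the cluster (red) and in the other hepatocytes (grey), with both libraries pooled. Hspa8, Hsp90ab1 and Ubb in Hepatocyte2 start from shares of 59.6% to 62.4% outside the cluster, whereas Hspa9, St13 and Hspd1 in Hepatocyte4 start from 24.8% to 37.5%.

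The table of all cells sets 12 clusters each against the rest of the cells, and 6 of its 1755 genes were members. Its shares could not be read on the same scale as those above. For the same cluster, Egr1 had a value above 0 in 74.0% of Hepatocyte4 cells in this table and in 38.3% in the hepatocyte table. For Hspa1b in Hepatocyte4 the values were 78.3% and 36.1%, for Egr1 in Hepatocyte5 90.7% and 51.7%, and for Jun in Hepatocyte5 86.8% and 52.3%. Over all 825 rows found in both tables, the share was higher in the table of all cells for 704, equal within 0.05 percentage points for 104 and lower for 17, and the median difference was 10.5 percentage points. The 4 member rows differed by 34.5 to 42.2 percentage points. Shares already close to the top of the scale could rise little, so the median is not a like comparison for the members. Of the genes nearest to Egr1, Tex2 had 38.0% of Hepatocyte4 in the hepatocyte table and 70.3% in this one. Acsf2 had 35.9% and 45.4%.

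**Figure D4:**
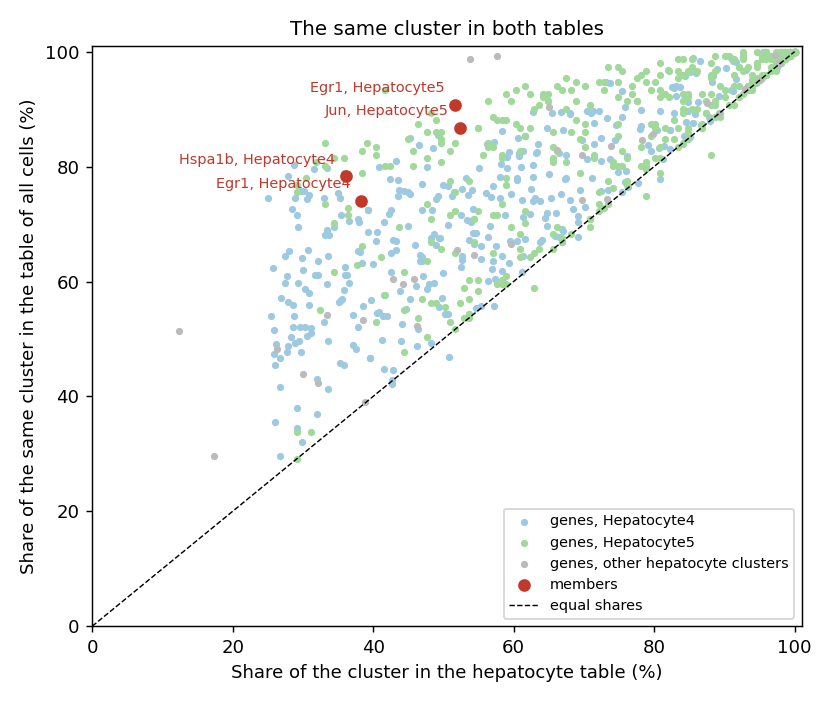
Each point is a gene in 1 hepatocyte cluster, by the percentage of that cluster with a value above 0 in the hepatocyte table (horizontal) and in the table of all cells (vertical); members are red and the dashed line marks equal shares. Most points lie above the line, and the 4 member rows lie 34.5 to 42.2 percentage points above it.

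The reference cells differed in the same way. Outside Hepatocyte4, 37.9% of all cells had a value above 0 for Hspa1b and 41.1% for Egr1. Had each non-hepatocyte (10.1% of all cells) been positive and the hepatocytes kept their shares from the hepatocyte table, these values could not have been above 19.2% and 17.0%. The corresponding limits outside Hepatocyte5 were 20.1% for Egr1 and 22.1% for Jun, against 45.8% and 47.4% in the table. The values above 0 in this table are therefore not the same as those in the hepatocyte table. How they were made is not given in the sources used here, and its shares are called all-cell shares. For this table, found and positive mean a value above 0 in it, which need not be a detected transcript.

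Within the table of all cells, the members fell on 6 of the 12 clusters. For Hepatocyte4, Egr1 and Hspa1b were listed (25.2% of all genes), and for Hepatocyte5, Egr1 and Jun (24.7%). Kupffer cells, the liver macrophages, listed 4 members, Dusp1, Egr1, Fos and Junb (28.4%). Neutrophils listed 3, Dusp1, Fos and Junb (12.9%). The cluster named endothelial cells listed 2, Dusp1 and Jun (5.58%), and the cluster labelled HSC (stellate cells) and fibroblast listed 1, Junb (30.5%). Beside 3 of 4 endothelial markers, the endothelial cluster listed 1 of 4 stellate or fibroblast markers. Beside 3 of 3 neutrophil markers, neutrophils listed 1 of 4 T cell markers. No member was listed for Hepatocyte1 (1.77%), Hepatocyte2 (0.57%), Hepatocyte3 (2.11%), B cells (29.1%), T cells (34.1%) or red blood cells (18.2%). Zfp36 and Hspa1a were not in the table.

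Dusp1 had a higher share in each of the 3 non-hepatocyte clusters that listed it. So did Junb, by 0.7 percentage points in neutrophils, 3.9 in Kupffer cells and 35.3 in the HSC and fibroblast cluster. A higher share was usual among listed genes, with 423 of 499 for Kupffer cells and 185 of 226 for neutrophils. The endothelial cluster had 62 of 98, and the HSC and fibroblast cluster 531 of 535. Dusp1 was found in 54.9% of neutrophils against 21.3% of all other cells, in 49.3% of Kupffer cells against 21.2%, and in 38.0% of the endothelial cluster against 21.8%. In this table Dusp1 was not listed for Hepatocyte4, the cluster that listed it in the comparison between hepatocytes. The all-cell share of Dusp1 left for the 9 other clusters together was 20.3%.

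Fos, whose protein pairs with Jun in AP-1, and Junb, whose protein can antagonise Jun, were listed for non-hepatocyte clusters alone. Fos was found in 32.5% of Kupffer cells and also 32.5% of all other cells, and in 27.4% of neutrophils against 32.6%. Fos was therefore listed with an equal or lower share of positive cells in both clusters. Junb was found in 44.3% of neutrophils against 43.6% and in 47.4% of Kupffer cells against 43.5%. In the HSC and fibroblast cluster, the smallest with 0.171% of all cells, Junb was found in 78.9% against 43.6%. Over all cells, the all-cell shares of Fos and Junb were 32.5% and 43.6%. By these shares, the clusters that listed them held 4.44% of the cells above 0 for Fos and 5.34% for Junb. Both were close to the 4.77% and 4.94% of all cells in these clusters.

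Egr1 and Jun also had rows with a lower all-cell share in the cluster. Egr1 was found in 25.2% of Kupffer cells against 47.0% of all other cells, and ranked 495 of the 499 genes listed for Kupffer cells by difference. Jun was found in 37.0% of the endothelial cluster against 48.0%. Most of the other cells were hepatocytes, of which 11.5% were positive for Egr1 and 13.8% for Jun in the comparison between hepatocytes. These lower shares therefore hold for all-cell shares only, and their cause was not tested. Of all genes listed for Kupffer cells 74 had a lower share inside, and of the 98 listed for the endothelial cluster 36 did. In Hepatocyte4 and Hepatocyte5, both genes had higher all-cell shares than the reference wherever they were listed. So did 439 of all 443 genes listed for Hepatocyte4 and 433 of the 434 listed for Hepatocyte5.

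**Figure D5:**
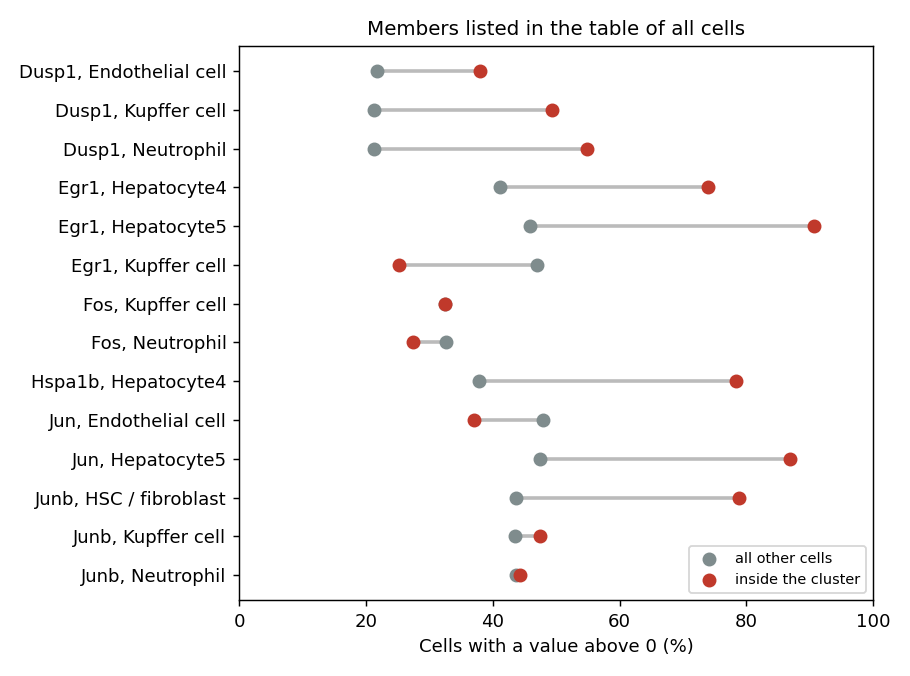
Each line is 1 member in 1 cluster of the table of all cells, and the horizontal axis gives the percentage of positive cells in that table, in the cluster (red) and in all other cells (grey), with both libraries pooled. The red point lies to the left of the grey one for Egr1 in Kupffer cells, Fos in neutrophils and Jun in the endothelial cluster, and on it for Fos in Kupffer cells.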

How the data were processed

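Single-cell libraries of primary hepatocytes, 1 from PBS-treated and 1 from rIL-33-treated mice, were grouped by the sample labels. Cell Ranger (mm10) gave UMI counts to the authors, who kept cells with 200 to 3000 genes and at most 50% mitochondrial genes, log-transformed counts per 10000, and used Seurat (3.1.2 and 4.0.4) for clustering on 50 principal components at resolution 5 and for cluster markers, both libraries pooled. The upper limit was set against potential doublets, the cells were not sorted, and no doublet caller was run here. Genes that they left out of clustering were not analysed here. The fractions deposited by the authors, to 3 decimals, count positive cells (value above 0) inside and outside a cluster and appear here as percentages. The authors' fold changes and p-values were not used and no test was run. Depth is unknown, and no interval was computed. Rows with gene names stored as dates (7 rows, 5 names) were left out.

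Cluster sizes were fitted by least squares and scaled to a total of 100%. The fit sought equal values of share outside + size × (share inside − share outside) for each cluster of a gene. It used genes listed for at least 2 clusters (486 genes for hepatocytes, 1115 for all cells). Nearest genes were the 3 with the smallest mean absolute difference in shares. Named genes were the members, list genes listed for a hepatocyte cluster, these nearest genes, and the gene with the largest difference per cluster, of which those of Hepatocyte4 and Hepatocyte5, and Iglc3, are printed. Values of some list genes are not reported here. The members and lists were chosen with earlier results of these data known. Alternatives were other limits for listing, the other table, ratios in place of differences, other fits of cluster sizes, each list alone and a shorter promoter window. Promoters are from RefSeq (GRCm38.p6; 7 of 8 members matched) and gene models from GENCODE M21. Software was Python 3.11.15 with pandas 2.3.3, NumPy 2.4.6, SciPy 1.17.1 and Matplotlib 3.10.9.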

Additional observations from a re-analysis of the deposited data

How the results depend on the processing

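The number of members listed for Hepatocyte4 was 5, and 2 in the table of all cells; with a difference of at least 10 or 25 percentage points it was 5 or 4. The 2 members of Hepatocyte5 were counted under each of these alternatives. Shares inside a cluster changed with the table, to 78.3% for Hspa1b and 74.0% for Egr1 in Hepatocyte4 and to 90.7% for Egr1 and 86.8% for Jun in Hepatocyte5 in the table of all cells, and the cause was not tested. Ranked by ratio in place of difference, Dusp1 moved from 650 to 104, Egr1 from 447 to 68 and Zfp36 from 279 to 526 of 877 in Hepatocyte4, and the other 4 ranks stayed within 1.5 times. The shares over all hepatocytes moved by at most 0.05 percentage points with least absolute deviations or with rows at least 10 percentage points apart. Of the other listed genes, the immediate early list alone held 5 of 9 in Hepatocyte4 (54.7% of all genes). It held 0 in Hepatocyte2 (3.49%) and Hepatocyte3 (7.67%). The heat shock list alone held 4 in Hepatocyte4 and 1 of 3 in Hepatocyte5 (54.3%). With a difference of at least 10 percentage points, 0 were left in Hepatocyte3. In the last 150 bases before the start, TATAAA was found in 1 promoter in place of 2, and the other motifs in as many as before. No paired analysis was possible because each condition had 1 library and both were pooled. The unknown depth limits all shares, since no share is set at equal depth, and members at a low level may go unlisted.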

Other observations

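Other immediate early genes were listed for non-hepatocyte clusters in the table of all cells, with all-cell shares. Klf2, a transcription factor of quiescent lymphocytes and endothelium, was found in 57.4% of T cells against 31.2% of all other cells, in 57.0% of neutrophils against 31.0% and in 40.9% of B cells against 31.3%. Klf6 was found in 51.9% of neutrophils against 28.6%, in 45.4% of Kupffer cells against 28.6% and in 43.2% of T cells against 28.9%. In the endothelial cluster it was found in 8.3% against 29.2%. Gadd45a, a stress gene of the p53 pathway, was found in 65.0% of red blood cells against 15.3% and in 68.4% of the HSC and fibroblast cluster against 15.5%. The latter, with 0.171% of all cells, listed 3 of 4 endothelial markers beside 3 of 4 stellate or fibroblast markers. The red blood cell cluster listed 1 of 3 red blood cell markers. Btg2, an antiproliferative gene, was found in 78.7% of red blood cells against 39.8% and in 50.2% of B cells against 39.9%. In neutrophils it was found in 41.8% against 40.0%, and in Kupffer cells in 37.1% against 40.2%. Dusp5, a MAP kinase phosphatase, was listed for T cells alone, with 26.4% against 5.9%. Hspb1, the small heat shock protein HSP27, was listed for Hepatocyte3 with a lower share inside (16.3%) than outside (29.1%), and was not in the hepatocyte table.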
